A study of Drosophila melanogaster with 3 samples.

Results

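The 9 genes described here encode voltage-gated sodium and calcium channels of Drosophila, a sodium leak channel and auxiliary channel subunits. They were taken by name (para, NaCP60E, tipE, cac, Ca-alpha1D, Ca-alpha1T, Ca-beta, stj and na), and every line they have in the deposited gene lists of Bsh:Dam peaks was used. The annotation used has 17684 genes on the 6 chromosomes with peaks, and these are 9 of them. Binding was profiled by Targeted DamID, in which a transcription factor fused to the Dam methylase marks nearby GATC sites. The 3 biological replicates all come from L4 lamina neurons at 46–76 hr APF, and they form 1 group. Crosses were reared at a low temperature, and pupae were moved to a higher one at 46 hr APF to activate the driver. The age of 76 hr is an equivalent at the usual rearing temperature. Whole laminae were collected, so the restriction to L4 rests on the driver. Pupae came from Bsh-TaDa females and males that carry tubP-GAL80[ts] together with 31C06-Gal4 and UAS-myristoylated-tdTomato. The Dam profile that each ratio is set against came from the FlyORF-TaDa line crossed to the same males. Bsh, brain-specific homeobox, is a homeodomain transcription factor of lamina neurons, and the fusion is an added transgene made at a low level in cells with 31C06-Gal4 activity. Every replicate therefore carries a temperature-sensitive Gal4 inhibitor, the 31C06 driver, tdTomato and the Bsh:Dam transgene. The methods name no bsh mutation in this cross. Laminae of many pupae were pooled, so a replicate is a pool and not an animal. The peak lists hold no expression values, so the labelled cell type could not be checked against marker genes. With a single group, no comparison between conditions was possible.

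Voltage-gated channels open with a change of membrane potential, and each is built around a large pore-forming alpha subunit. Sodium channels carry the rising phase of action potentials, and calcium channels couple depolarization to transmitter release and to signals inside the cell. Auxiliary subunits (TipE for the sodium channel, beta and alpha2-delta subunits for calcium channels) set how many channels reach the membrane and how they gate. The leak channel encoded by na, the fly NALCN homolog, passes a steady sodium current that depolarizes neurons at rest.

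Of the 9 genes, 7 were listed with a peak in every replicate, and 2, stj and na, had no line in any replicate. For 5 genes the highest score exceeded 2.5, the threshold used in the study, in all 3 replicates: para, NaCP60E, tipE, cac and Ca-beta. Over all annotated genes this share was 9.75%, and 13.2% were listed at any score in all 3 replicates. The 9 genes have a median span of 30.1 kb, so the shares were also taken among genes in the same range of span, called genes of like span below. Only the range was matched and not the distribution of spans within it, so these shares are not adjusted for length. Among 3215 protein-coding genes whose spans lie between those of the shortest and the longest of the 9 genes (5.29 and 88.4 kb), 27.9% passed 2.5 in all 3 replicates and 34.8% were listed in all 3. The scores are values of the authors' peak caller, already relative to Dam, and no test of the 9 genes against other genes was made.

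**Figure D1:**
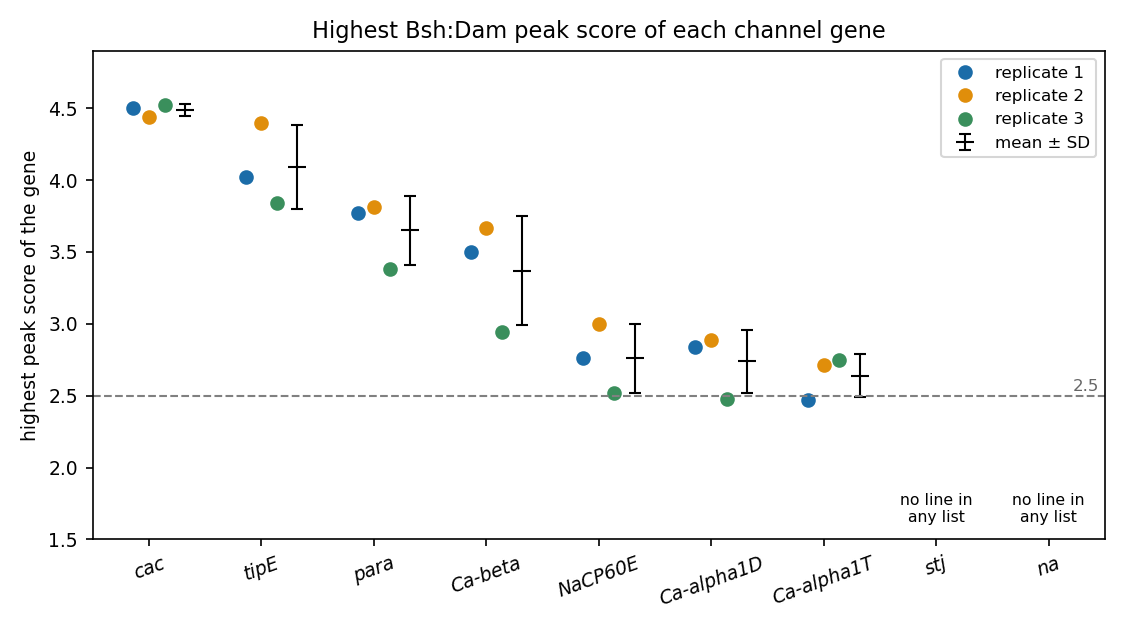
The highest peak score of each channel gene (vertical axis, score of the peak caller) is plotted for replicates 1, 2 and 3, with the mean and SD of the 3 values. Genes are ordered by mean from cac (4.49) to Ca-alpha1T (2.64), the dashed line marks 2.5, and stj and na have no value.

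By mean highest score the order was cac, tipE, para, Ca-beta, NaCP60E, Ca-alpha1D and Ca-alpha1T. The values of cac lay above all those of tipE, and the values of tipE above all those of para. The mean differences within a replicate were 0.40 ± 0.33 for cac over tipE and 0.43 ± 0.17 for tipE over para (SD, n = 3). In replicate 2 cac (4.44) and tipE (4.40) were nearly equal, so the first of these steps was little larger than its spread. From para downwards, neighbours in the order had overlapping ranges. Within each replicate, however, para scored above Ca-beta and Ca-beta above NaCP60E, by 0.28 ± 0.15 and 0.61 ± 0.17 on average (SD of the within-replicate differences, n = 3). The last 3 genes could not be ordered. NaCP60E exceeded Ca-alpha1D in 2 of 3 replicates by a mean of 0.02, and Ca-alpha1D exceeded Ca-alpha1T in 2 of 3 by a mean of 0.09.

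The peaks of these genes fell into 12 regions, a region being a set of peaks that overlap by at least 1 bp across replicates. In 9 regions all 3 replicates had a peak, in 1 region 2 replicates did and in 2 regions only 1. Start and end were the same in all 3 replicates for 4 of the 9 shared regions. In 5 regions every replicate scored above 2.5, namely both para regions, the tipE and cac regions and 1 Ca-beta region. Regions shared by replicates are not counted over all peaks here, so these numbers are a description. Because a gene's highest score may come from different peaks in different replicates, the count of genes drops to 4 when the same region must pass each time, and the gene lost is NaCP60E. That rule was added after the data were seen.

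**Figure D2:**
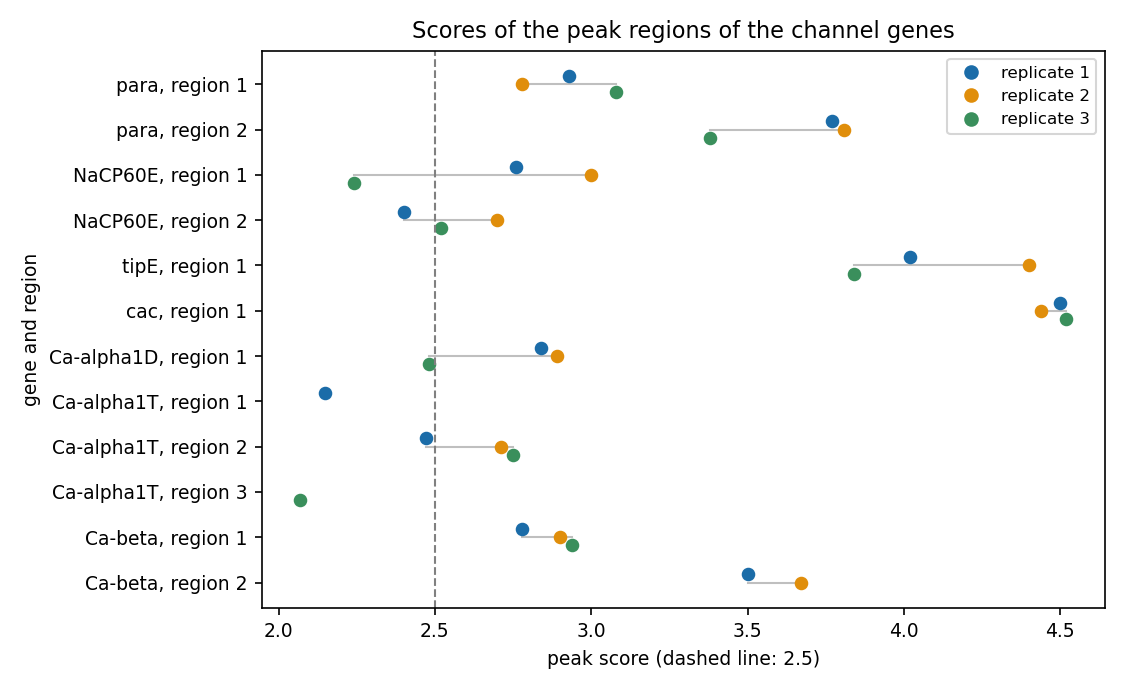
Each row is 1 of the 12 peak regions of the channel genes, and points give the peak score (horizontal axis) in replicates 1, 2 and 3, with a grey line over their range. The cac region lies between 4.44 and 4.52, while 4 of the 9 regions found in all replicates have at least 1 point left of the dashed line at 2.5.

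The sodium channel alpha subunit is encoded by para, the gene whose products carry the neuronal sodium current of the fly. Its highest scores were 3.77, 3.81 and 3.38 in replicates 1, 2 and 3 (mean 3.65 ± 0.24, SD, n = 3). They came from a broad peak of 3137 bp on chromosome X, from 16529238 to 16532374 in every replicate. This peak lies inside the gene, 722 bp from the end with the higher coordinate. A second para region starts at 16516733 and scored 2.93, 2.78 and 3.08. It reached 16519045 in replicates 1 and 2 and was shorter in replicate 3, with an end at 16518465. In replicate 3 the stronger peak was weaker, and the weaker one stronger, than in the other replicates. By RefSeq position, neither para region lies within 1 kb of another annotated gene. Peaks covered 6.98%, 6.98% and 6.24% of its span of 78070 bp.

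NaCP60E encodes a second channel of sodium channel sequence, also known as DSC1, which has been described as a voltage-gated cation channel that prefers calcium. Its highest scores were 2.76, 3.0 and 2.52 (mean 2.76 ± 0.24, SD, n = 3), all above 2.5, with replicate 3 only just above it. The values do not come from the same place. A peak of 3476 bp on 2R, from 24891105 to 24894580, crosses a border of the gene and scored 2.76, 3.0 and 2.24. It also lies within 1 kb of Ance-5. A further peak inside the gene, starting at 24916439, scored 2.4, 2.70 and 2.52. Each region was thus above 2.5 in 2 of 3 replicates, and only replicate 2 had both above it. The FDR that the authors' peak caller gave to the first region was 1.2e-03, 1.1e-03 and 7.1e-03.

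tipE encodes an auxiliary subunit that raises the sodium current carried by the para channel. It had 1 line per replicate, with scores of 4.02, 4.40 and 3.84 (mean 4.09 ± 0.29, SD, n = 3). Within their replicates these scores equalled or exceeded the highest scores of 88.0%, 96.5% and 86.8% of the listed symbols. The peak is not on the gene. It lies on 3L and ends at 4188090 in every replicate, and it starts at 4186998 in replicates 1 and 3 and at 4187368 in replicate 2. That places its nearer end 409 bp outside the annotated tipE span, so tipE was listed through the distance limit of 1 kb. The same peak crosses a border of Teh2, overlaps CG18675 and lies within 1 kb of VhaM9.7-c. Teh2 is one of 4 genes related to tipE whose products also associate with the sodium channel, and its scores are the scores of tipE.

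Teh2, Teh3 and Teh4 lie beside tipE, whereas Teh1 is on 3R. Inside Teh4, and also on CG18675, a peak of 746 bp from 4176634 to 4177379 scored 2.82, 2.48 and 2.5. Only replicate 1 was above 2.5. Teh3 had no line in any replicate, and the nearest peak was that of Teh2, 2.33 kb away in replicates 1 and 3 and 2.71 kb away in replicate 2. Teh1 had its highest scores in a peak inside the gene, from 9865116 to 9866819, with 2.59, 2.44 and 2.25. A second Teh1 peak, from 9854435, was listed in replicates 1 and 2 with 2.05 and 2.19. Of the 5 tipE-type genes, tipE and Teh2 therefore passed 2.5 in all replicates, and they did so with 1 shared peak.

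**Figure D3:**
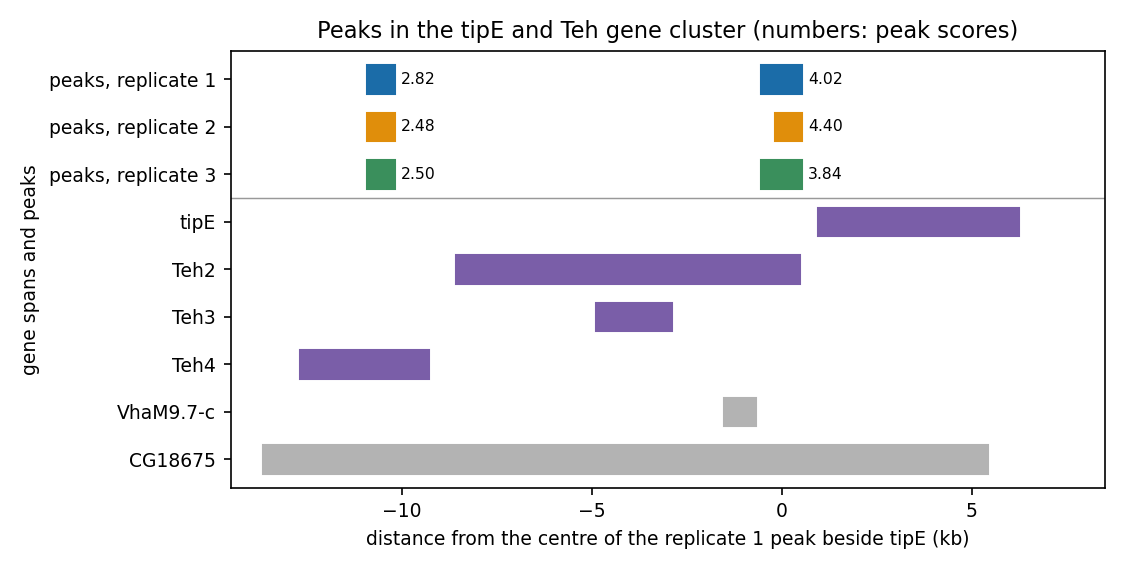
Gene spans (bars in the lower rows) and Bsh:Dam peaks of replicates 1, 2 and 3 (upper rows, with their scores) are drawn against the distance in kb from the centre of the replicate 1 peak beside tipE. The peak with scores of 4.02, 4.40 and 3.84 overlaps the spans of Teh2 and CG18675 and stops short of tipE, and the Teh4 peak lies to its left with 2.82, 2.48 and 2.5.

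cac encodes the alpha subunit of the presynaptic calcium channel, the channel through which calcium enters at active zones to trigger transmitter release. It had the highest scores of the 9 genes in each replicate, with 4.50, 4.44 and 4.52 (mean 4.49 ± 0.042, SD, n = 3). Only 1 peak was listed for this gene of 53808 bp, and it covered 0.873% of the span in every replicate. The peak has a length of 1185 bp and runs from 11984618 to 11985802 on chromosome X in all 3 replicates. It crosses the border of cac with the higher coordinate and also overlaps the neighbouring gene gd, which encodes a protease of the embryonic dorsoventral pathway. The gene lists assign this peak to both genes, so gd has the same 3 scores. Among all peaks of the same replicate, the cac peak scored at or above 98.6%, 97.8% and 99.3%. Its FDR was 1.6e-11, 4.4e-11 and 1.2e-10, the lowest of any peak of these channel genes in each replicate.

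Ca-alpha1D encodes the L-type calcium channel alpha subunit, which carries much of the calcium current of fly muscle and of neuronal dendrites and cell bodies. A peak of 3019 bp inside the gene, from 16167244 to 16170262 on 2L, scored 2.84, 2.89 and 2.48 (mean 2.74 ± 0.22, SD, n = 3). The borders were identical in every replicate. Replicate 3 fell short of 2.5 by 0.02, and without replicate 3 the gene would pass. Its FDR of 3.4e-03, 4.9e-03 and 9.4e-03 was the highest of the 3 calcium channel alpha subunits in replicates 2 and 3, and in replicate 3 it came close to the limit of 0.01 of the peak list. The peak covered 12.2% of the span.

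Ca-alpha1T encodes the T-type, low-voltage-activated calcium channel alpha subunit, and its span of 88399 bp is the longest of the 9. The region found in all replicates ends at 6160848 on chromosome X, inside the gene and 31635 bp from the nearer border. It scored 2.47, 2.71 and 2.75 (mean 2.64 ± 0.15, SD, n = 3), so replicate 1 fell short of 2.5 by 0.03. Without replicate 1 the gene would pass. Each of the 2 further peaks was seen in 1 replicate only. One from 6146361 to 6148777 scored 2.15 in replicate 1, and one from 6192186 to 6194782, across a border of the gene and within 1 kb of CG32750, scored 2.07 in replicate 3.

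Ca-beta encodes the beta subunit, which binds the calcium channel alpha subunits inside the cell and promotes their delivery to the membrane. Its highest scores were 3.50, 3.67 and 2.94 (mean 3.37 ± 0.38, SD, n = 3), the widest spread of the 7 genes with peaks. The value of replicate 3 comes from another peak than those of replicates 1 and 2. A short peak of 549 bp on 2L, from 11202799 to 11203347, scored 3.50 and 3.67 in replicates 1 and 2 and was not listed in replicate 3. It lies 197 bp inside the end of the gene with the higher coordinate. The other region, 11159 to 11629 bp inside the same end, scored 2.78, 2.90 and 2.94 in replicates 1, 2 and 3, with an SD of 0.08. In replicates 1 and 2 that peak ran from 11190684 to 11191915, and in replicate 3 it was shifted to 11191211–11192385. Neither region lies within 1 kb of another annotated gene.

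**Figure D4:**
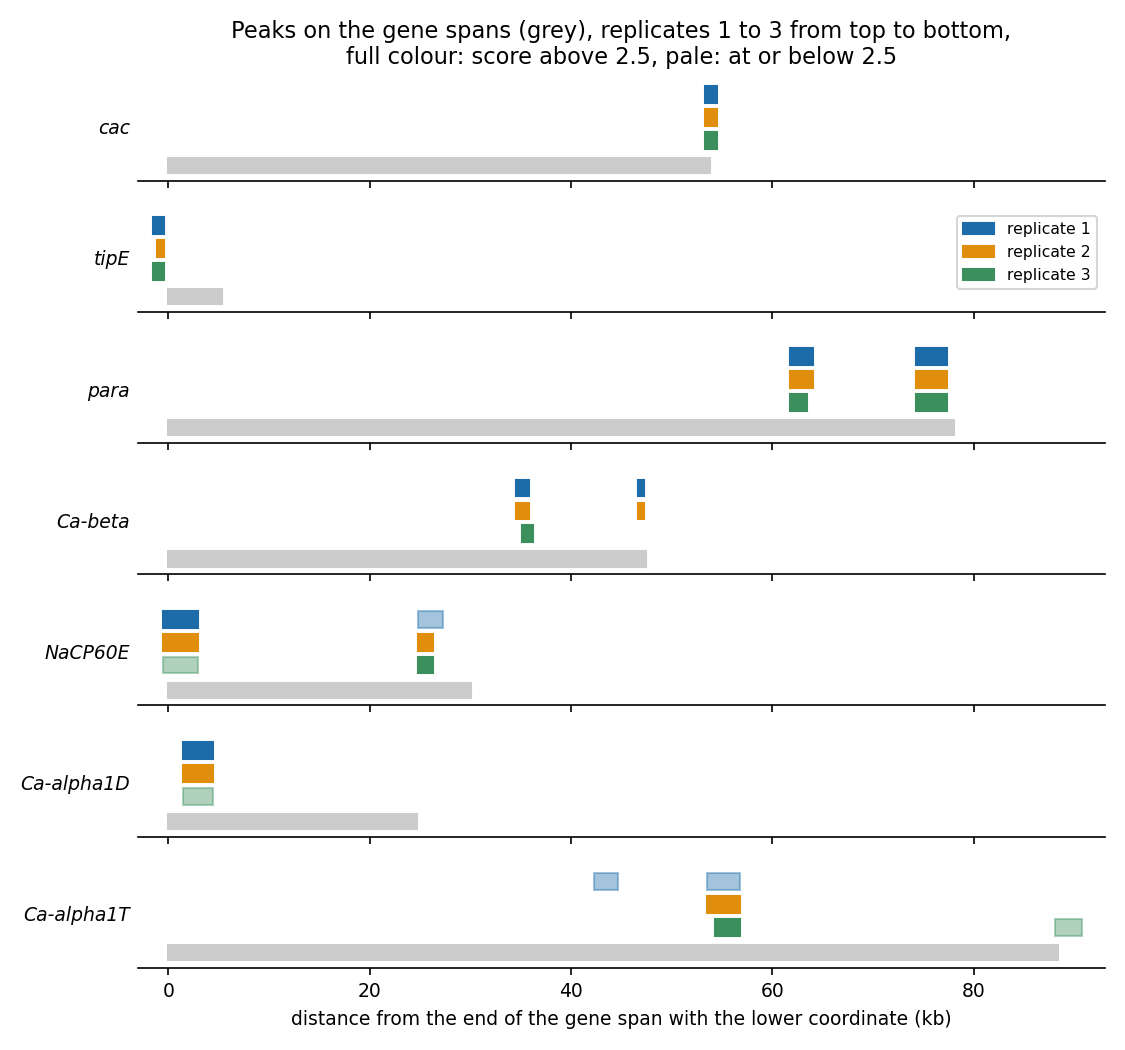
For each of the 7 channel genes with peaks, the gene span is drawn in grey from its end with the lower coordinate (horizontal axis, distance in kb), with the peaks of replicates 1, 2 and 3 above it. Full colour marks scores above 2.5, and the Ca-beta peak at the right end of the span is missing in replicate 3 while the NaCP60E regions are each pale in 1 replicate.

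stj encodes an alpha2-delta subunit that supports the presynaptic calcium channel at synapses. No peak was listed for it in any replicate, and the nearest one lies 4.17 kb outside its span of 13.8 kb. That peak starts at 13823742 on 2R, overlaps fl(2)d, and scored 3.16, 3.56 and 2.89. Other genes of the same subunit type, stol (older symbol CG4587) and Ca-Ma2d, had no line either. For them the nearest peaks were 42.3 to 42.4 kb and 29.8 to 31.1 kb away. None of the 3 alpha2-delta genes thus had a peak, at spans of 13.8, 74.1 and 10.1 kb. Among protein-coding genes of like span 34.8% were listed in all 3 replicates, so most such genes were not. The remainder can include genes listed in fewer replicates, so it is not the share of genes with no line. The absence of these 3 genes is given as a description.

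na had no line, and its nearest peak was 43.3 kb away in replicates 1 and 3 and 47.2 kb away in replicate 2. In replicates 1 and 3 that peak overlaps dpr8, with 5 annotated genes between it and na. unc79 and unc80, which encode large partner proteins of the leak channel, had no line in any replicate. The share of 34.8% listed in all 3 replicates among genes of like span stands beside na, unc79 and unc80 too, with the same limit. The nearest peaks were 23.9 kb from unc79 and 5.91 kb from unc80. Mid1, also known as Nlf-1 and needed in flies to bring the leak channel to the membrane, differed from them. It had 3, 4 and 5 lines in replicates 1, 2 and 3, with highest scores of 3.82, 4.09 and 3.60 (mean 3.84 ± 0.25, SD, n = 3). The span of Mid1, 41.3 kb, is longer than those of na, unc79 and unc80 (11.1, 15.4 and 14.7 kb). Among genes of like span 27.9% passed 2.5 in all 3 replicates, and the part of length in this difference was not tested. Signal below the authors' peak limits is not in the lists, so what lay beneath them at the unlisted genes was not measurable here.

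Replicate 3 gave the lowest highest score for 5 of the 7 genes with peaks, and cac and Ca-alpha1T had theirs at their highest there. Replicates 1, 2 and 3 held 11, 10 and 10 peaks of the channel genes, and 8, 10 and 7 of these exceeded 2.5. Over all 2834, 2838 and 2891 peaks of the lists, 75.7%, 79.3% and 64.9% did, so the list of replicate 3 as a whole has lower scores. Its part in the values of Ca-alpha1D and Ca-beta was not tested. Ranked within the replicate, Ca-alpha1D scored at or above 39.6%, 35.7% and 32.2% of listed symbols in replicates 1, 2 and 3. Ca-alpha1T ranked at 21.1%, 28.5% and 46.6%, and NaCP60E at 35.1%, 42.4% and 33.9%. These 3 genes were below the middle of the listed symbols in every replicate, whereas cac, tipE, para and Ca-beta were above it.

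The peaks of the channel genes were 549 to 3476 bp long. Their median length was 2415, 1906 and 2124 bp in replicates 1, 2 and 3, against 1587, 1645 and 1508 bp over all peaks. Their median score was 2.84, 2.95 and 2.84, against 2.98, 3.08 and 2.77 over all peaks. Of the 12 regions, 8 lay inside the gene, 3 crossed a border and 1, that of tipE, lay outside. In 8 regions no other annotated gene was within 1 kb. No such counts over all peaks stand beside these, so they only describe the regions of the channel genes. Of the 6 genes with a peak on their own span, 4 in replicate 1, 4 in replicate 2 and 2 in replicate 3 had their highest peak within 1 kb of a border or across it. Among genes of like span with a peak this share was 36.8%, 37.1% and 35.5%, and no test was made over so few genes. The gene table used gives no strand, so a border may be the start or the end of a gene.

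Genes were also counted in 4 further lists, of channel partners, calcium and sodium transport, calcium sensors and other cation channels. These lists were chosen by function, with earlier results of these data known. Of 9 channel partner genes, Teh2 and Mid1 passed 2.5 in all replicates, Teh1 and Teh4 were listed without passing, and Teh3, Ca-Ma2d, stol, unc79 and unc80 were not listed. Of 17 calcium and sodium transport genes, 9 passed. Orai, the pore of the store-operated calcium channel, scored 4.49, 4.56 and 4.49, and Itpr, the calcium release channel of the endoplasmic reticulum opened by inositol trisphosphate, scored 4.51, 4.48 and 4.23. Atpalpha, the catalytic subunit of the sodium pump, scored 3.91, 4.03 and 4.16, and its beta subunits nrv2 and nrv3 passed while nrv1 was not listed. The other genes that passed were Calx and Nckx30C, both sodium/calcium exchangers, MCU, the mitochondrial calcium uniporter, and Ncc69, a sodium-potassium-chloride cotransporter. Calx has its highest score in replicate 3 from a peak that also lies within 1 kb of Atpalpha. RyR was listed in replicates 2 and 3 with 2.5 and 2.07, and genes with no line included SERCA, PMCA, Stim, zyd and Letm1.

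Among 14 calcium sensor genes and their targets, 5 passed. Cam, which encodes calmodulin, had the highest scores of the list with 4.15, 4.09 and 3.83. CaMKII, the calcium/calmodulin-dependent kinase, scored 2.74, 2.94 and 2.75. Frq1 and Frq2, the frequenin genes, scored 2.53, 2.79 and 2.98 and 3.47, 3.64 and 3.22. Pp2B-14D, a calcineurin gene, scored 2.85, 2.93 and 2.53. Its relative CanA-14F missed 2.5 in replicate 3, with 2.73, 2.77 and 2.35. CaMKI, CanA1, CanB, CanB2, Cbp53E, Nca, Cals and stac had no line in any replicate. Of 18 other cation channel genes, 7 passed. They were Trpgamma, Trpm and trpl of the TRP family, the mechanosensitive channel genes Tmem63 and Piezo, Ih, the hyperpolarization-activated channel, and Cngl. Cngl, a cyclic nucleotide-gated channel-like gene, scored 4.08, 3.97 and 3.75, and trpl, a channel of the phototransduction cascade, scored 3.44, 3.35 and 2.97. Its partner channel trp was not listed, and iav was listed in replicates 1 and 2 with 2.51 and 2.44. The TRP genes Trpml, nompC, nan, pyx, pain, TrpA1 and wtrw had no line in any replicate, nor had Tmc and CngA. The shares that passed were 55.6% for the 9 channel genes and 22.2%, 52.9%, 35.7% and 38.9% for the partner, transport, sensor and cation channel lists, beside 9.75% of all annotated genes and 27.9% of genes of like span. The median spans of the lists were 30.1 kb for the channel genes and 14.7, 17.1, 9.46 and 11.3 kb for the others in the same order. The range that defines like span was set by the 9 channel genes. Some genes of the other lists are shorter than it, such as CanB (1.95 kb) and Tmem63 (3.62 kb), which passed. With lists this short, and with genes of like span matched to the range of the channel genes only, the shares are given as a description.

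**Figure D5:**
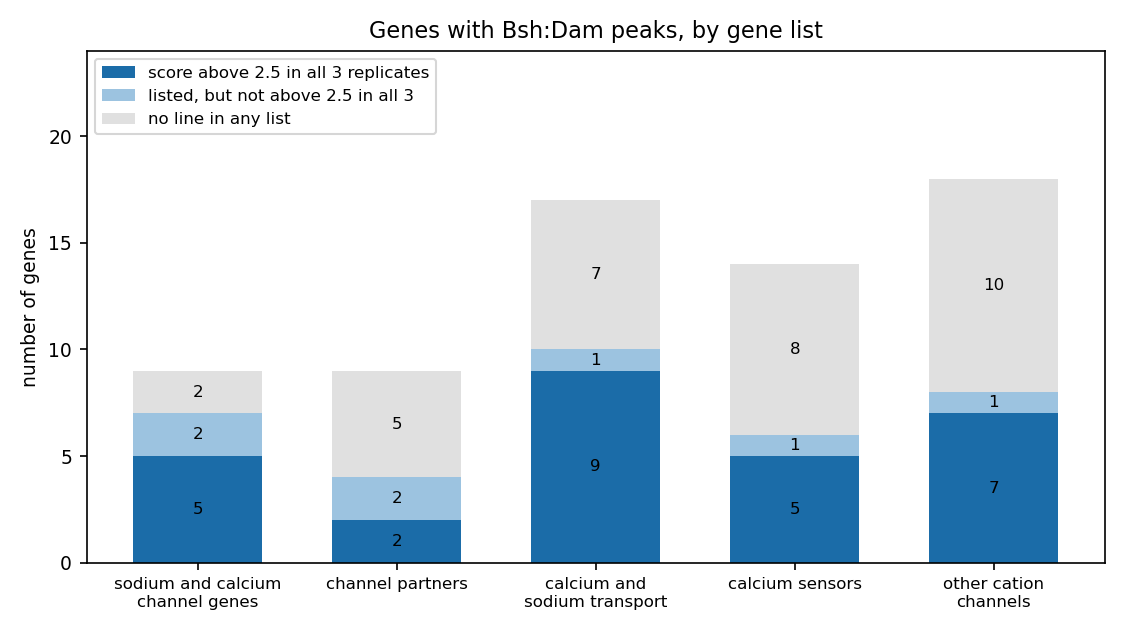
Stacked bars count genes (vertical axis) in the list of sodium and calcium channel genes and in the lists of channel partners, calcium and sodium transport, calcium sensors and other cation channels. Dark segments are genes with a score above 2.5 in all 3 replicates (5, 2, 9, 5 and 7), light blue segments are genes listed without passing, and grey segments are genes with no line.

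The genes whose scores were most like those of cac were sought among 2326 other genes listed in all 3 replicates, by the mean absolute difference of the highest score over the 3 replicates. gd, which shares the peak and the scores of cac, was left out. The closest of the others was mtd, with 4.51, 4.50 and 4.52 and a mean difference of 0.023. Sema1b followed with 4.51, 4.49 and 4.48 and 0.033, then Cypl and Hipk, which have identical scores, with 0.037. Of the lists above, Orai was next with 0.053.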

How the data were processed

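Bsh:Dam binding in L4 neurons was measured by Targeted DamID in 3 replicates. Per the methods, the authors checked reads with FastQC (0.11.9), set Bsh:Dam against Dam as a log2 ratio in the damidseq pipeline, called peaks with find_peaks (FDR below 0.01 and a minimum quantile) and assigned genes to peaks with peaks2genes. The study elsewhere gives the limit of that assignment as 1 kb, and each replicate has its own deposited peak list, so replicates were not pooled. The deposited files hold, for each replicate, peaks with a score and an FDR, and gene symbols with the score of each assigned peak. The formula of the score was not worked out here. The lists hold no read counts, so the number of reads behind a score is not known from them and no interval was computed. The genome build is not given in the sources used here.

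Symbols were matched to the RefSeq table of Release 6 plus ISO1 MT by current symbol, locus tag or an older symbol of a single gene. In replicates 1, 2 and 3, 21, 36 and 40 of 3129, 3093 and 3206 symbols had no match. Gene spans were used for overlap, length and distance. Each of the 31 gene-list lines of the 9 genes had a peak of the same score within 1 kb of the span. Gene positions, exons and sequences are not printed. Of the names in the partner list, 2 point to the same gene, Ca-Ma2d, which leaves 9 genes.

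A gene passed when every replicate gave it a highest score above 2.5. The text names all 9 genes, list members with a line, genes within 1 kb of their peaks and the genes closest to cac in score. Names of unlisted genes (1 of the transport list is not reported here), of genes at the nearest peaks, and Hipk and Orai in the last comparison, were added from the results. The 9 genes and the lists were chosen with earlier results of these data known. Alternatives were other score and FDR limits, fewer replicates, each replicate left out, assignment by span, an overlap of 50% and the mean score of all lines. Symbols as written and a rule on the same region were added after the data were seen. Overlap and assignment were tested on simulated data. Python 3.11.15 and matplotlib 3.10.9 were used.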

Additional observations from a re-analysis of the deposited data

How the results depend on the processing

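A score above 3 in place of 2.5 left 3 of the 9 channel genes (cac, tipE and para), and 2 calcium sensor genes and 4 other cation channel genes in place of 5 and 7. Of the channel partner genes, 4 were listed with no score threshold, 4 passed 2.5 in at least 1 replicate and 1 passed with symbols as written, in place of 2. Limited to peaks with a score above 2.5, 5 regions of the channel genes were found in all 3 replicates, in place of 9. Under the other alternatives these counts stayed within 1.5 times their main value. For the channel genes, that covers 6, 5 and 6 genes without replicates 1, 2 and 3, 4 genes by overlap with the span itself (tipE is lost), 4 with an FDR below 0.001 (NaCP60E is lost) and 4 when the same region must pass each time. The mean highest scores were recomputed under 34 alternatives, and 32 moved them by less than 1 SD. The exceptions were the means over all lines of para (3.29) and Ca-alpha1T (2.48). By overlap with its own span tipE has no score. No paired comparison of conditions was possible because the samples form 1 group. The lists hold no depth, so the precision behind a single score is unknown.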
